A study of Rattus norvegicus with 24 samples.

Results

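The comparison described here set the kidneys of 6 male rats that had been kept for 8 weeks on a high salt and fat diet against those of 6 male rats kept for the same 8 weeks on a normal diet. The 12 arrays were chosen by the diet and time in their labels, out of 24 arrays in the series. All animals were SHR-SP rats, the stroke-prone line of the spontaneously hypertensive rat, so inherited hypertension was shared by both groups and no normotensive strain was analysed here. The other 12 arrays, 6 for each diet after 2 weeks, entered as the earlier time.

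The rats were assigned to a diet at random when 11 weeks old and were thus 19 weeks old at the end. The normal diet was powdered chow with plain drinking water. The other diet was a chow of 24.5% fat, from another supplier, with 1% NaCl in the water. Salt, fat and the source of the chow changed together, so their effects cannot be told apart. RNA came from the whole kidney, cortex and medulla together, with 1 array for each animal. In such bulk tissue, fewer cells of a type and less RNA per cell cannot be told apart. Blood pressure, proteinuria and histology were not analysed here.

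Most of the kidney cortex is proximal tubule, whose cells reabsorb filtered sodium, glucose, amino acids and proteins and burn fatty acids to do so. Injured tubular cells are known to lower these transporters and to switch on secreted and surface proteins such as KIM-1 (Havcr1), NGAL (Lcn2), osteopontin (Spp1) and clusterin. Lasting injury draws in macrophages and activates the fibroblasts and pericytes that lay down collagen, and salt loading is known to speed this course in the stroke-prone line.

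Values are MAS5 signals, a brightness in arbitrary units that the authors scaled to a common level on every array. Differences are high salt and fat minus normal on the log2(signal + 7.21) scale, which understates the change of weak signals, and are given ± the standard error. Adjusted p-values are from limma with Benjamini-Hochberg adjustment over 10208 probe sets, with n = 6 in each group. A gene was called, or said to rise or fall, at an adjusted p under 0.05.

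The markers of the kidney were present on all 12 arrays: uromodulin (Umod) ran from 4737.2 to 6687.9, Slc34a1 from 3851.3 to 5995.7, Aqp2 from 616.9 to 1781.7, Slc12a1 from 268.2 to 544.9 and the podocyte gene Nphs1 from 49.0 to 90.3. Median signals of the 12 arrays were 69.4 to 78.7. The 3' to 5' ratio of the GAPDH control probe sets, a sign of RNA integrity, was 1.16 ± 0.0911 (SD, n = 6) on high salt and fat and 1.16 ± 0.0668 on the normal diet, with a two-sided exact permutation p of 0.911. The spike-in controls, added in fixed amounts, were 0.23 higher on the high salt and fat arrays on the log2 scale (exact permutation p = 0.0476, or 0.0952 adjusted over the 2 measures). Normal-diet arrays 1 and 2 had the lowest spike-in levels of the 12, at -0.443 and -0.308. Their lowest percentile of signals, at 2.4 and 3.0, stood above the 0.8 to 1.2 of the other 10 arrays. Values without these 2 arrays or with the spike-in level as a covariate stand beside the 8-week list counts of 3 or more given here that they moved by over 1.5 times.

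After 8 weeks the high salt and fat diet had moved 933 of 10208 probe sets (9.14%), of which 575 were higher and 358 lower. The increases were the larger: 58 called probe sets were at least 2-fold higher and 2 were at least 2-fold lower. Taking 1 probe set for each of 7493 genes, 429 genes (5.73%) were called higher and 282 (3.76%) lower. In 179 genes (2.39%) all 6 high salt and fat animals lay above all 6 normal-diet animals, and in 87 (1.16%) they all lay below. The count of called probe sets fell to 543 without high salt and fat animal 1, to 579 without animal 5 and to 541 without normal-diet animals 1 and 2, and it was 497 once the spike-in level entered the model as a covariate.

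**Figure D1:**
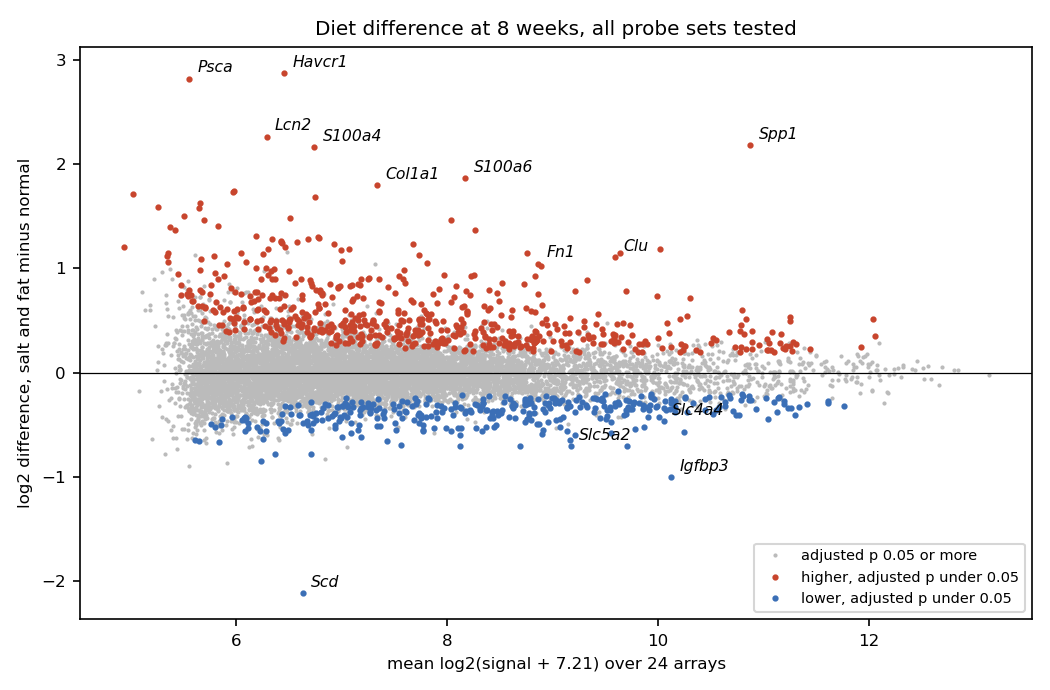
Each point is a probe set; the x axis is its mean log2(signal + 7.21) over 24 arrays and the y axis its log2 difference at 8 weeks, high salt and fat minus normal. Red points (575) and blue points (358) had an adjusted p under 0.05; the farthest red point, Havcr1, reached 2.88, and the farthest blue point, Scd, reached -2.12.

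Of 29 markers of tubular injury tested, 16 were called higher and 0 lower by limma (19 and 0 at an unadjusted p under 0.05), and their median difference was 0.60, against 0.0017 over all genes. In 15 of the 29 all 6 high salt and fat animals lay above all 6 normal-diet animals, against 2.39% of all genes. A mean of the list in each animal, relative to the normal-diet mean, lay between -0.0431 and 0.0779 on the normal diet and between 0.561 and 1.16 on high salt and fat. Animals 5 and 1 of the high salt and fat group had the highest values, 1.16 and 1.13, and animals 6 and 2 the lowest, 0.561 and 0.598.

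Havcr1 encodes KIM-1, a receptor for dying cells that healthy proximal tubules barely make. Its signal was 30.1 to 68.0 (median 52.15) in the normal-diet animals and 177.4 to 879.0 (median 395.25) in the high salt and fat animals. The groups did not overlap, and the affected animals differed among themselves by more than the normal-diet animals did. The difference was 2.88 ± 0.33 (7.36-fold, adjusted p = 2.2e-06), the largest increase among the called genes at this pseudocount.

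Lcn2 encodes NGAL, a carrier of bacterial iron chelators that damaged tubules and neutrophils secrete. It ran from 19.5 to 62.2 (median 38.0) on the normal diet and from 133.8 to 346.4 (median 237.6) on high salt and fat. All 6 animals were thus above the control range, by 2.27 ± 0.22 (adjusted p = 1.57e-07). Neutrophil markers S100a8 and S100a9 were below the filter on weak signals.

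Spp1, osteopontin, is a secreted phosphoprotein that attracts macrophages. Its signal was 888.0 to 1637.4 (median 1043.7) on the normal diet and 3102.5 to 7386.6 (median 5431.65) on high salt and fat. The groups did not overlap, with a difference of 2.19 ± 0.17 (adjusted p = 5.26e-09), the smallest adjusted p of all probe sets. Clusterin (Clu), a secreted chaperone, rose from 575.1 to 759.5 into a range of 1013.9 to 2219.5, a difference of 1.11 ± 0.13 (adjusted p = 2.52e-06). Vimentin (Vim), an intermediate filament of mesenchymal and dedifferentiated cells, rose by 0.93 ± 0.15 (adjusted p = 0.000131), again with no overlap. The cell surface glycoprotein gene Cd24 went from 481.6 to 713.1 up to 1041.5 to 1589.0, by 1.14 ± 0.10 (adjusted p = 1.47e-08). Fga, the alpha chain of fibrinogen, was 22.8 to 32.3 on the normal diet and 46.8 to 216.7 on the other. The difference was 1.58 ± 0.26 (adjusted p = 0.000231). All normal-diet values of Fga lay below the filter level (44.48 to 54.5), so the size of this difference rests on the pseudocount.

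**Figure D2:**
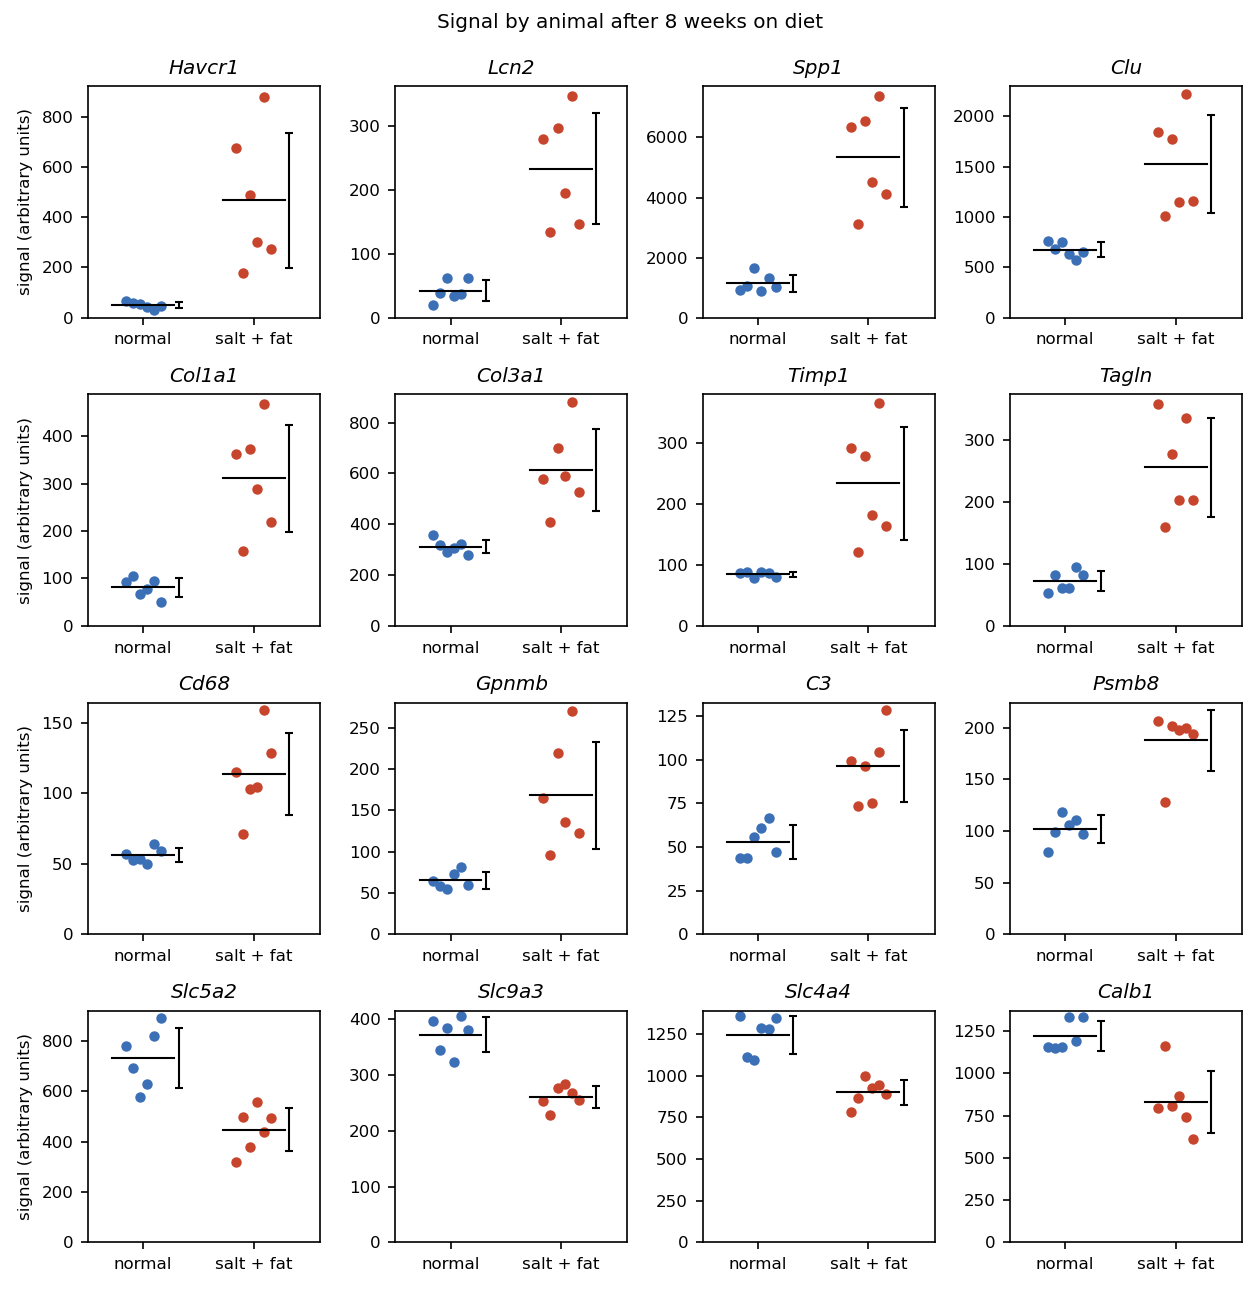
Each panel shows the signal of a gene (y axis, arbitrary units, from 0) in the 6 normal-diet animals (blue) and the 6 high salt and fat animals (red) after 8 weeks; the horizontal line is the mean and the error bar the SD. Havcr1, Lcn2, Spp1 and Clu show no overlap, with the highest red point at 879.0, 346.4, 7386.6 and 2219.5, and the transport genes Slc5a2, Slc9a3 and Slc4a4 lie lower in all 6 red points.

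Calcium-binding S100 proteins and annexins, which tie the cytoskeleton to membranes under calcium control, were the list with the highest share called. Of 18 tested, 11 rose and 0 fell (12 and 0 at an unadjusted p under 0.05), with a median difference of 0.45. S100a4, a protein of motile and fibroblast-like cells, was 48.3 to 75.2 on the normal diet and 181.8 to 426.2 on high salt and fat (2.17 ± 0.23, adjusted p = 6.55e-07). S100a6 ran from 133.2 to 170.9 and from 330.9 to 1035.6 (1.87 ± 0.20, adjusted p = 6.55e-07). S100a11 rose by 1.18 ± 0.10, Anxa2 by 1.15 ± 0.14 and Anxa5, which binds phosphatidylserine on dying cells, by 0.89 ± 0.10. None of these genes had overlapping groups. S100a4, S100a6 and Anxa2 also stood in the injury list, so the counts of the 2 lists are not independent.

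Genes of the epithelial cell contacts and the actin cytoskeleton were called in the same direction only. Of 23 junction and cytokeratin genes, 8 rose and 0 fell (12 and 0 at an unadjusted p under 0.05). Claudins seal tight junctions: Cldn3 went from 13 to 57.9 up to 71.2 to 140.1 (1.75 ± 0.25), Cldn7 rose by 0.85 ± 0.16 and Cldn4 by 1.24 ± 0.26, the last with overlapping groups. Krt8, a keratin of simple epithelia, rose by 0.48 ± 0.08 (adjusted p = 0.000181) and desmoplakin (Dsp) by 0.49 ± 0.08. Of 28 cytoskeletal genes 13 rose and 0 fell (15 and 0 at an unadjusted p under 0.05), among them the actin cross-linkers Flna (0.83 ± 0.11) and Actn1 (0.82 ± 0.10) and the actin capping protein Capg (0.97 ± 0.14). A further probe set of Actn1 differed by 0.37 ± 0.14 (adjusted p = 0.0945).

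Some of the largest increases belonged to no injury list. Psca, a small membrane-anchored protein of urothelium and other epithelia, was 5.3 to 17.1 on the normal diet and 89.6 to 152.0 on high salt and fat. All its normal-diet values lay below the filter level (44.48 to 54.5), which it passed through the other diet, so it had to differ and the size of the difference rests on the pseudocount. For the gene Psca that size was 2.82 ± 0.27 as fitted, 3.43 with a pseudocount of 1 and 1.79 with a pseudocount of 32. Krt5, the other urothelial gene of the list that passed the filter, was not called, and their summed signal was 50.9 to 82.1 and 137.8 to 199.7. Emilin1, a glycoprotein of elastic fibres, rose by 1.73 ± 0.27, Tspan1 by 1.63 ± 0.25, the cell cycle inhibitor Sfn by 1.59 ± 0.32 and the microtubule protein gene Eml2 by 1.71 ± 0.51. The 8-week normal-diet values of Tspan1 (9.1 to 41.6), Sfn (8.3 to 40.5) and Eml2 (3 to 44.4) also all lay below the filter level. Those of Emilin1 (13.2 to 48.5) reached no higher than its range. The sizes of these differences thus rest on the pseudocount as well. Eml2 had an adjusted p of 0.0305 and lost its call under 9 other settings, where its adjusted p reached 0.13.

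Collagens form the fibres of scar and the sheets of basement membranes. Of 16 collagen genes tested, 8 rose and 1 fell, with a median difference of 0.34. Col1a1, the main chain of type I collagen in scar, was 51.3 to 105.2 (median 84.6) on the normal diet and 158.8 to 467.3 (median 325.15) on high salt and fat. The groups did not overlap, and the difference was 1.80 ± 0.20 (adjusted p = 1.11e-06). A further Col1a1 probe set rose by 0.79 ± 0.13 (adjusted p = 0.000231). Col3a1, the partner collagen of early scar, went from 280.3 to 356.2 up to 410.4 to 881.2 (0.93 ± 0.14, adjusted p = 5.41e-05). Col1a2 rose by 0.86 ± 0.15, while its weaker probe set differed by 0.21 ± 0.15 (adjusted p = 0.431). Col4a4, a chain of the glomerular basement membrane, was the collagen that fell, from 96.4 to 114.6 down to 51.5 to 89.3 (-0.58 ± 0.13, adjusted p = 0.0048).

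Of 32 matrix glycoproteins and proteoglycans, 11 rose and 1 fell. Fibronectin (Fn1), on which collagen assembles, was 277.7 to 399.3 on the normal diet and 497.7 to 980.6 on high salt and fat (1.05 ± 0.13, adjusted p = 6.74e-06). Decorin (Dcn), which binds collagen fibrils, rose by 0.79 ± 0.14 with overlapping groups, and the heparan sulphate proteoglycan Gpc3 by 0.72 ± 0.10 with none. Has2, a hyaluronan synthase, fell by 0.52 on the log2 scale (SE 0.15, adjusted p = 0.0226); it lost its call under 5 other settings, the highest adjusted p being 0.0728.

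Of 29 enzymes and inhibitors that process the matrix, 7 rose and 1 fell. Without normal-diet animal 1 the count of increases was 4, and it was also 4 without normal-diet animals 1 and 2 or with the spike-in covariate. Timp1, an inhibitor of metalloproteinases, stood at 78.2 to 87.7 (median 86.1) in the normal-diet animals and at 120.2 to 364.8 (median 230) in the others. The normal-diet values lay close together and the high salt and fat values were all above them, by 1.30 ± 0.20 (adjusted p = 8.52e-05). Adamts1, a protease that cuts proteoglycans, rose by 1.19 ± 0.16, the collagen-modifying enzyme Plod2 by 0.83 ± 0.12 and the collagen chaperone Serpinh1 by 0.62 ± 0.11. Timp3, an inhibitor bound to the matrix, moved the other way, by -0.34 ± 0.09 (adjusted p = 0.0169), and 2 further probe sets of it fell as well (-0.50 ± 0.10 and -0.32 ± 0.07), while a remaining one was not called (-0.50 ± 0.23).

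Genes of TGF-beta and BMP signalling were called at about the shares of all genes. Of 33 tested, 2 rose (6.06%, against 5.73% of all genes) and 1 fell (3.03%, against 3.76%). Their median difference was 0.0089. Activity of the pathway was not tested. Tgfb1 itself was weak, at 6.0 to 56.6 and 8.7 to 95.8, with a difference of 0.77 ± 0.44 (adjusted p = 0.292). Connective tissue growth factor (Ccn2) differed by 0.25 ± 0.23 (adjusted p = 0.563), with 411.6 to 1440.0 in the high salt and fat animals on both sides of the normal-diet range of 631.7 to 951.9. The called members were follistatin (Fst), an activin trap (1.07 ± 0.16), the repressor Tgif1 (0.81 ± 0.16) and the activin receptor Acvr2a (-0.47 ± 0.14), whose call was lost under 12 other settings.

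Contractile genes of smooth muscle and pericytes were higher in 7 of 18 and lower in 0 (10 and 0 at an unadjusted p under 0.05). Transgelin (Tagln), which binds actin in contractile cells, was 53.0 to 94.6 on the normal diet and 159.0 to 358.3 on high salt and fat (1.69 ± 0.21, adjusted p = 4.37e-06). Tpm2 rose by 0.75 ± 0.17, Cald1 by 0.57 ± 0.14 and Csrp1 by 0.32 ± 0.08. Acta2, smooth muscle actin and the usual label of myofibroblasts, was 174.8 to 259.2 and 210.1 to 328.6, a difference of 0.25 ± 0.12 that did not pass the test (adjusted p = 0.177).

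Macrophage and myeloid genes were called higher in 10 of 29 and lower in 2, with a median difference of 0.25; 7 further genes of the list were below the filter. Gpnmb, a glycoprotein of lipid-laden and phagocytic macrophages, was 55.2 to 81.2 on the normal diet and 95.8 to 269.9 on high salt and fat (1.21 ± 0.17, adjusted p = 2.91e-05). The lysosomal macrophage marker Cd68 was 50.1 to 63.9 (median 55.45) and 71.2 to 159.0 (median 109.65), without overlap (0.90 ± 0.14, adjusted p = 0.000106). C1qa, the complement chain that tissue macrophages make, rose by 0.57 ± 0.09, cathepsin S (Ctss) by 0.49 ± 0.10 and the leukocyte lysosomal protein Laptm5 by 0.73 ± 0.15. Csf2rb, the shared receptor chain for GM-CSF and related cytokines, fell from 328.7 to 406.5 down to 180.7 to 328.0 (-0.57 ± 0.11, adjusted p = 0.00171). Apoe fell by 0.28 on the log2 scale (SE 0.09, adjusted p = 0.0361); its call was lost under 15 other settings, where the adjusted p reached 0.0936.

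Signals of other leukocytes were scarce. Of the lymphocyte genes on the array, 14 were below the filter, among them the T cell receptor genes Cd3d and Cd3e and the co-receptor Cd8a. Of the 9 tested 1 was called, the GTPase gene Rac2 (0.41 ± 0.11, adjusted p = 0.0145), which myeloid cells also express. Of 27 chemokine, cytokine and adhesion genes 5 rose and 0 fell (8 and 2 at an unadjusted p under 0.05), and 20 were below the filter, including the macrophage chemoattractant Ccl2. The endothelial and tubular adhesion molecule Vcam1 rose from 88.4 to 128.3 up to 141.7 to 199.7 (0.60 ± 0.13, adjusted p = 0.0032), and the TWEAK receptor Tnfrsf12a by 0.86 ± 0.15. Icam1 was 48.2 to 173.5 and 102.2 to 230.9 and was not called (0.73 ± 0.25, adjusted p = 0.0632). It was called with a replicate block, without normal-diet animal 5 or 6 and without high salt and fat animal 2, at adjusted p-values of 0.0187 to 0.0383. The 5 increases became 2 without normal-diet animals 1 and 2, and 2 with the spike-in level as a covariate.

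MHC class I molecules show peptides from inside the cell to T cells. Of 20 genes of this presentation tested 8 rose and 0 fell (12 and 0 at an unadjusted p under 0.05), and 12 were not called. Psmb8, a catalytic subunit of the immunoproteasome, was 79.8 to 118.6 (median 102.4) on the normal diet and 127.8 to 206.0 (median 198.6) on high salt and fat (0.83 ± 0.12, adjusted p = 4.38e-05). High salt and fat animal 2 held the value of 127.8, apart from the other 5. The subunit gene Psmb10 rose by 0.64 ± 0.13, the proteasome activators Psme1 and Psme2 by 0.48 ± 0.06 and 0.58 ± 0.09, and the peptide transporter Tap2 by 0.74 ± 0.14, none with overlapping groups. The light chain B2m was 3392.0 to 4262.0 and 3932.4 to 4543.8 and was not called (0.16 ± 0.07, adjusted p = 0.146), while its weaker probe set was (0.23 ± 0.06, adjusted p = 0.0165).

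Of 11 class II genes 3 were called higher: RT1-Db1 (0.65 ± 0.12), RT1-Da (0.54 ± 0.11) and Ctss. The invariant chain Cd74, at 2819.6 to 3311.2 and 2843.5 to 3579.8, differed by 0.08 ± 0.07 (adjusted p = 0.488). Of 24 interferon response genes 5 rose and 0 fell (6 and 0 at an unadjusted p under 0.05): the membrane proteins Ifitm1 (0.64 ± 0.08) and Ifitm3 (0.49 ± 0.08), the virus tether Bst2 (0.74 ± 0.14), Lgals3bp (0.50 ± 0.13) and Ifi27 (0.47 ± 0.12). The means of this list by animal overlapped between diets, from -0.168 to 0.114 and from -0.100 to 0.333.

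Several of these genes carry in their promoters the letters GAAANNGAA, the core to which interferon regulatory factors bind. The stretches of 150 bases before the transcription start of 4 of them are shown to place these letters, which stand in capitals. They were read 5' to 3' on the gene's strand from RefSeq's GRCr8 promoter table.
Psmb10 (minus strand of chr19:50743293-50743442): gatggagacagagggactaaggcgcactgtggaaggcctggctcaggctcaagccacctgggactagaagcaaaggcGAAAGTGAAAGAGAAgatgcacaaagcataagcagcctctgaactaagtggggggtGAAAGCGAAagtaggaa
Psme2 (minus strand of chr15:33052752-33052901): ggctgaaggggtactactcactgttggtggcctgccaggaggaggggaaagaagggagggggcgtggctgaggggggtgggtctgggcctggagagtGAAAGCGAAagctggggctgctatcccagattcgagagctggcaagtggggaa
Tap2 (minus strand of chr20:4652297-4652446): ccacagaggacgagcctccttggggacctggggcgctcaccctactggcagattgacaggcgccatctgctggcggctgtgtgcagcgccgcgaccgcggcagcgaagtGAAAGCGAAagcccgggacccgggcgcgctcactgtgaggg
Bst2 (minus strand of chr16:18254968-18255117): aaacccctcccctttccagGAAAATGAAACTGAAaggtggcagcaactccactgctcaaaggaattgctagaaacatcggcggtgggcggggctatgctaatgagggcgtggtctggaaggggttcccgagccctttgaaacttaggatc

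The letters occurred 3 times in the Psmb10 stretch, with overlap between the leading 2, once each in those of Psme2 and Tap2, and 2 times with overlap in that of Bst2. Over windows of 300 bases (250 before and 50 after the start) and both strands, 2608 of 27457 promoters (9.5%) held them. Among tested genes 407 of 6293 (6.47%) held them. They were in 28 of 349 promoters of genes called higher (8.02%) and in 12 of 228 of genes called lower (5.26%). Of the called class I genes with a listed promoter, 4 of 7 held them, and of the called interferon response genes 4 of 4. Among members of the same lists that were tested and not called, 3 of 11 and 5 of 16 held them. The AP-1 letters TGACTCA were in 17 of 349 promoters of genes called higher (4.87%) in 3.32% of those of tested genes and in 4.53% of all promoters. For GGGANTTCC, an NF-kappaB core, these shares were 2.01%, 2.3% and 1.73%, and for the STAT letters TTCCNGGAA they were 1.15%, 1.18% and 1.23%. A match is a description of these letters and not a site of binding.

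Of 26 complement and coagulation genes 8 rose and 1 fell. Complement C3, which macrophages and tubules both make, was 43.5 to 66.6 on the normal diet and 73.4 to 128.5 on high salt and fat (0.77 ± 0.15, adjusted p = 0.00107), and the protease C1s rose by 0.68 ± 0.12. Tissue factor (F3), which starts coagulation, fell from 520.2 to 994.5 down to 384.5 to 508.3 (-0.65 ± 0.12, adjusted p = 0.000593). Of 37 lysosomal genes 7 rose and 3 fell. The protease cathepsin D (Ctsd) rose by 0.37 ± 0.09 and the cholesterol carrier Npc2 by 0.28 ± 0.06, whereas the hydrolases Neu1 and Glb1 and cathepsin H (Ctsh) moved by -0.39 ± 0.09, -0.33 ± 0.09 and -0.29 ± 0.08. The weaker probe set of Neu1 was not called (-0.20 ± 0.13, adjusted p = 0.372). The 3 lysosomal decreases became 6 without normal-diet animal 2. The 7 lysosomal increases became 3 without normal-diet animals 1 and 2, and 3 with the spike-in level as a covariate.

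**Figure D3:**
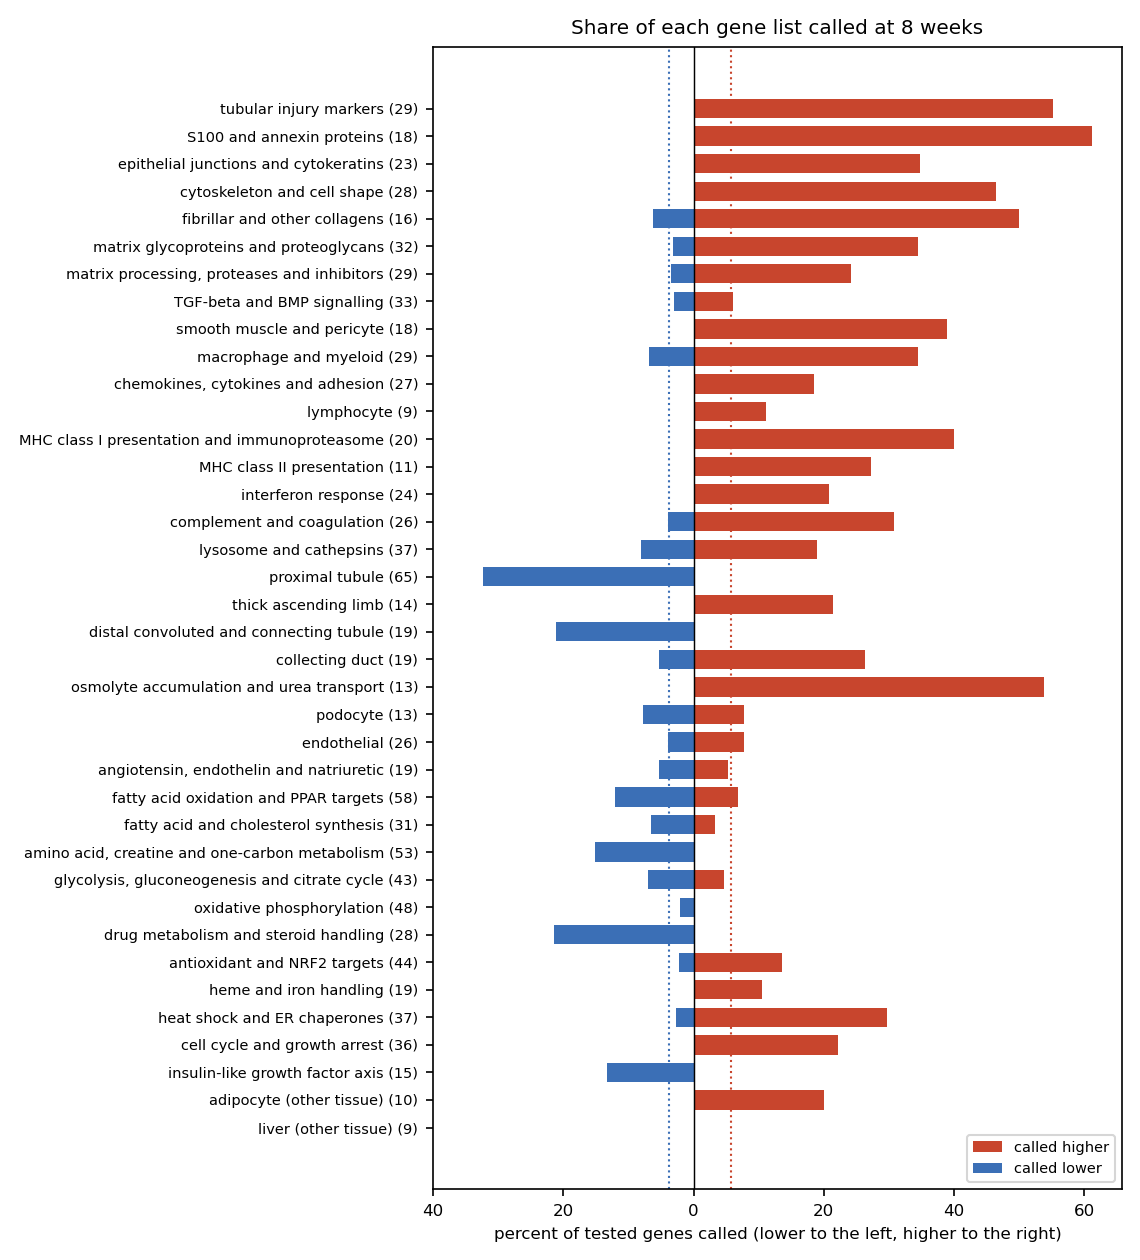
Bars give the percent of the tested genes of each list (number in brackets) that were called higher (red, to the right) or lower (blue, to the left) at 8 weeks; the dotted lines mark the shares over all genes, 5.73% higher and 3.76% lower. The injury list (16 of 29) and the S100 and annexin list (11 of 18) reach far to the right and the proximal tubule list (21 of 65) far to the left.

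Of 65 proximal tubule genes tested 0 rose and 21 fell (2 and 30 at an unadjusted p under 0.05), with a median difference of -0.21; 52 of the 65 differences were below 0. The decreases were smaller than the increases of the injury genes. Without high salt and fat animal 1 the count was 13. The list mean by animal was -0.0977 to 0.0935 on the normal diet and -0.305 to -0.109 on high salt and fat. Animals 5 and 1, highest in the injury list, had the lowest values here, -0.305 and -0.272.

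The glucose transporter SGLT2 (Slc5a2), which takes back most filtered glucose, was 577.6 to 891.7 (median 736.65) on the normal diet and 320.1 to 556.0 (median 467.05) on high salt and fat. The groups did not overlap, and the difference was -0.71 ± 0.13 (adjusted p = 0.000569). The sodium-hydrogen exchanger NHE3 (Slc9a3), the main route of proximal sodium entry, was 322.7 to 406.0 and 227.7 to 284.6 (-0.50 ± 0.08, adjusted p = 0.000248). The sodium bicarbonate cotransporter Slc4a4, which carries bicarbonate out at the basal side, went from 1096.8 to 1356.5 down to 782.3 to 998.2 (-0.47 ± 0.07, adjusted p = 5.68e-05), while its weaker probe set was not called (-0.30 ± 0.13, adjusted p = 0.147). The organic anion transporter Slc22a6 fell by 0.41 on the log2 scale and the protein uptake receptor megalin (Lrp2) by 0.33, with standard errors of 0.08 and 0.07. Slc34a1, the phosphate transporter, was not called in its brighter probe set (-0.20 ± 0.08, adjusted p = 0.133) but was in a further one (-0.44 ± 0.08, adjusted p = 0.00122). The brighter one was called under 4 other settings, among them without normal-diet animal 2. The transcription factor gene Hnf4a likewise had 1 probe set not called and 1 called (-0.22 ± 0.13, adjusted p = 0.311, and -0.38 ± 0.12, adjusted p = 0.0438). The fatty acid hydroxylase gene Cyp4a1 was 696.9 to 1020.1 and 588.1 to 715.2 (-0.36 ± 0.08, adjusted p = 0.00761). Klotho (Kl), a renal anti-ageing hormone, was 51.9 to 93.6 and 33.5 to 94.2 (-0.38 ± 0.18, adjusted p = 0.19).

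Beyond the proximal tubule the nephron segments differed. Of 14 genes of the thick ascending limb 3 rose and 0 fell (7 and 0 at an unadjusted p under 0.05). They were the cotransporter Slc12a1 (0.39 ± 0.11), the claudin gene Cldn19 (0.61 ± 0.13) and Ppp1r1b (0.86 ± 0.24), the last losing its call without normal-diet animal 1, without normal-diet animals 1 and 2 and with the spike-in covariate. Umod differed by 0.11 ± 0.08 (adjusted p = 0.425). Slc12a1 had an adjusted p of 0.0282 and lost its call under 9 other settings, with values up to 0.122. The 3 increases became 1 without normal-diet animal 1, without normal-diet animals 1 and 2 or with the spike-in covariate.

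Of 19 genes of the distal convoluted and connecting tubule 0 rose and 4 fell (0 and 7 at an unadjusted p under 0.05). Calbindin (Calb1), the calcium ferry of these cells, was 1149.7 to 1334.4 (median 1175.85) on the normal diet and 611.3 to 1162.6 (median 801.25) on high salt and fat (-0.58 ± 0.10, adjusted p = 0.000492). The potassium channel Kcnj16, tissue kallikrein (Klk1) and the sodium-calcium exchanger Slc8a1 fell by 0.38, 0.35 and 0.39 on the log2 scale; Slc8a1 lost its call under 10 other settings and Klk1 under 2. The 4 decreases became 2 with the spike-in covariate. The thiazide-sensitive cotransporter Slc12a3 spread widely, from 321.1 to 1201.0 in the high salt and fat animals, and was not called (-0.06 ± 0.19, adjusted p = 0.887).

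In the collecting duct 5 of 19 genes rose and 1 fell. The water channel Aqp2, which vasopressin places in the membrane, was 616.9 to 1062.0 and 1064.6 to 1781.7, so that the highest normal-diet animal lay just below the lowest of the others (0.73 ± 0.14, adjusted p = 0.000806). Aqp4 rose by 1.15 ± 0.16 and the sodium pump regulator Fxyd4 by 0.67 ± 0.14, while pendrin (Slc26a4), the exchanger of intercalated cells, fell from 200.8 to 268.0 down to 163.3 to 190.6. A further Aqp4 probe set was not called (0.55 ± 0.21, adjusted p = 0.0932). The Slc26a4 call (adjusted p = 0.0247) was lost without normal-diet animal 2 or 5, without high salt and fat animal 3, without normal-diet animals 1 and 2 and with the spike-in covariate, at up to 0.105. Of 13 genes by which kidney cells gather osmolytes or withstand high tonicity, 7 rose and 0 fell (7 and 2 at an unadjusted p under 0.05). The heat shock genes Hspb1 and Hspa1a were among these increases, so this count and that of the chaperones are not independent. Aldose reductase (Akr1b1), which makes sorbitol, was 92.5 to 155.9 and 254.3 to 602.3 (1.46 ± 0.22, adjusted p = 5.68e-05), and the inositol-making enzyme gene Isyna1 rose by 1.01 ± 0.21. Podocyte and endothelial genes were called at shares not far from those of all genes, 5.73% higher and 3.76% lower. Podocyte genes were called higher in 1 of 13 (7.69%) and lower in 1 (7.69%), and endothelial genes higher in 2 of 26 (7.69%) and lower in 1 (3.85%). Without normal-diet animals 1 and 2 or with the spike-in covariate the podocyte increase was lost and the endothelial increases became 1; Nphs1 differed by -0.17 ± 0.13 (adjusted p = 0.454) and the VEGF receptor Kdr fell by 0.40 on the log2 scale (SE 0.11).

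Genes of the systems that set salt balance and vessel tone were called at about the shares of all genes. In the list of angiotensin, endothelin and natriuretic genes 1 of 19 rose (5.26%, against 5.73% of all genes). Likewise 1 fell (5.26%, against 3.76%), and 14 were below the filter. Angiotensinogen (Agt) differed by 0.15 ± 0.13, Ace by 0.13 ± 0.17 and Edn1 by -0.16 ± 0.16, with adjusted p-values of 0.547, 0.699 and 0.608. The natriuretic peptide receptor Npr1 rose by 1.09 ± 0.26 from weak signals of 7.1 to 44.3, and the angiotensin-cleaving peptidase Enpep fell by 0.26 on the log2 scale (SE 0.08, adjusted p = 0.031), a call lost under 10 other settings. The weaker probe set of Enpep was not called (-0.10 ± 0.16, adjusted p = 0.753). The Npr1 call was lost without normal-diet animals 1 and 2 and with the spike-in covariate, at adjusted p-values of 0.0706 and 0.0944. All normal-diet values of Npr1 lay below the filter level (44.48 to 54.5), so the size of its difference rests on the pseudocount.

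Metabolic genes of the tubule were lower in part. Of 53 genes of amino acid and one-carbon metabolism 0 rose and 8 fell (1 and 22 at an unadjusted p under 0.05), among them Prodh (-0.65 ± 0.19), Phgdh (-0.52 ± 0.13) and Ass1 (-0.33 ± 0.08). The Prodh call (adjusted p = 0.0253) was lost under 7 other settings, at up to 0.0868. The 8 became 2 without high salt and fat animal 1, 4 without animal 5, 5 without animal 3, 5 without normal-diet animal 6 and 3 with the spike-in covariate. Of 58 genes of fatty acid oxidation 4 rose (6.9%, against 5.73% of all genes) and 7 fell (12.1%, against 3.76%). The thioesterase Acot12 was 102.4 to 148.8 and 40 to 103.8 (-0.78 ± 0.16), the hydratase Echs1 moved by -0.60 ± 0.10 without overlap, and the fatty acid transporter Slc27a2 by -0.34 ± 0.07. Acsl5, an acyl-CoA synthetase, rose from 163.3 to 184.6 up to 236.5 to 328.9 (0.66 ± 0.08, adjusted p = 5.63e-06). The 4 increases became 1 without normal-diet animal 6 or high salt and fat animal 1, and 2 without animal 5 or with the spike-in covariate. Of 28 drug-metabolizing genes 0 rose and 6 fell (2 and 13 at an unadjusted p under 0.05), and the 6 became 3 without high salt and fat animal 1, 3 without animal 4 and 2 without animal 5. In oxidative phosphorylation 0 of 48 rose and 1 fell (1 and 4 at an unadjusted p under 0.05). The fall was 2.08% of that list, against 3.76% of all genes.

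The lowest value among the decreases was that of Scd, a fatty acid desaturase known to fall with dietary fat. Its normal-diet signals were scattered from 32.8 to 899.9 (median 136.85), and those on high salt and fat were 5.1 to 43.6 (median 33.55). Normal-diet animals 1 and 4 had the highest Scd, 899.9 and 303.6. Of the normal-diet animals they also had the highest signals of the adipocyte genes Fabp4 (952.6 and 158.2) and Car3 (2089.9 and 639.7). The part of fat left on the kidney in the Scd difference was not tested. The Scd signals of the 2 diets overlapped slightly, and the difference of -2.12 ± 0.60 had an adjusted p of 0.0257. It rose to at most 0.199 among the 10 other settings that ended the call. Igfbp3, a carrier of insulin-like growth factors, also fell: 1266.2 to 1623.0 on the normal diet and 544.7 to 888.8 on the other (-1.01 ± 0.12, adjusted p = 3.12e-06), with a further probe set at -0.70 ± 0.11. Stra6, a receptor for retinol-binding protein, fell in 3 probe sets (-0.79 ± 0.16, -0.55 ± 0.12 and -0.67 ± 0.17), and a further one differed by -0.36 ± 0.14 (adjusted p = 0.115).

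Chaperones refold damaged proteins. Of 37 heat shock and endoplasmic reticulum chaperone genes 11 rose and 1 fell; the 11 became 7 without normal-diet animal 1, without high salt and fat animal 1 or with the spike-in covariate. The small heat shock protein Hspb1 was 129.3 to 187.8 and 241.7 to 421.5 (1.13 ± 0.13, adjusted p = 2.2e-06), and Cryab rose by 0.72 ± 0.12, while Hspb6 fell from 191.5 to 266.9 down to 142.1 to 184.4. Hspa1a rose by 1.24 ± 0.30, with a highest value of 1171.7 against a median of 285.65. Of 44 antioxidant genes 6 rose and 1 fell. Hmox1, the heme-degrading enzyme, was 53.7 to 89.2 and 80.7 to 472.3 (1.26 ± 0.29, adjusted p = 0.00677). The 6 increases became 3 without normal-diet animals 1 and 2 or with the spike-in covariate. Of 36 genes of the cell cycle and growth arrest 8 rose and 0 fell (13 and 2 at an unadjusted p under 0.05), with Myc at 0.96 ± 0.23, Klf6 at 0.72 ± 0.16 and Gadd45g at 0.90 ± 0.24, the last losing its call under 4 other settings. That count was 2 without normal-diet animals 1 and 2, 4 without normal-diet animal 2, 5 without normal-diet animal 4 or 5, 3 without high salt and fat animal 1 or 5, 5 without animal 3, and 3 with the spike-in covariate. The arrest gene Cdkn1a differed by 0.52 ± 0.30 (adjusted p = 0.303).

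**Figure D4:**
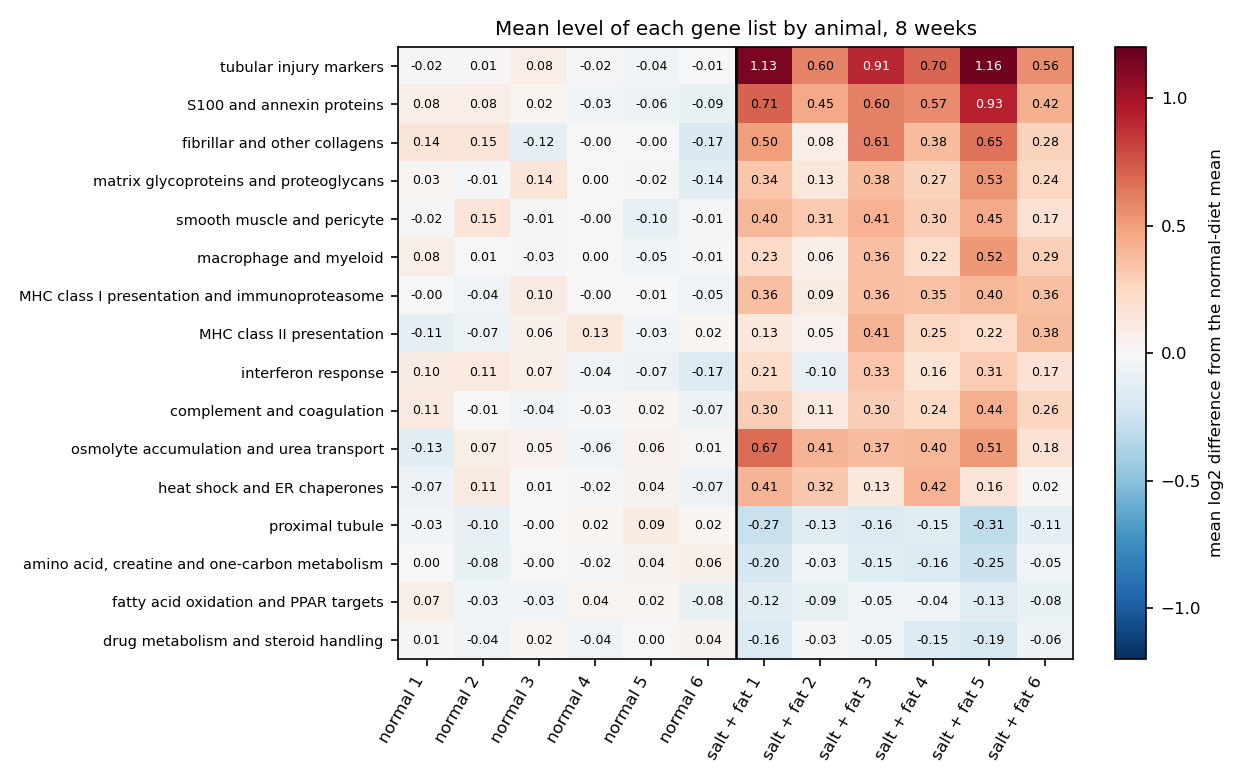
Each cell is the mean log2 level of a gene list (rows) in an animal (columns), minus the normal-diet mean; red is higher and blue lower, on a scale from -1.2 to 1.2. The injury row runs from 0.56 to 1.16 in the 6 high salt and fat animals, and animals 1 and 5 have the highest injury values and the lowest proximal tubule values, -0.27 and -0.31.

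The 8-week pattern was then set beside that of 2 weeks, where 377 genes (5.03%) were called higher and 269 (3.59%) lower in other animals against their own controls. Of all 10208 probe sets, 464 were called higher and 428 lower at 2 weeks. Of the 575 probe sets higher at 8 weeks, 170 (29.6%) were also called higher at 2 weeks, which is 36.6% of the 464 higher at 2 weeks. Of the 358 lower at 8 weeks, 107 (29.9%) were also called lower, which is 25% of the 428 lower at 2 weeks. Called or not, 491 of the 575 (85.4%) and 320 of the 358 (89.4%) differed in the same direction at 2 weeks. The share in the same direction over all probe sets was not computed, so how far these stand above it is not known. Only 5 of the 575 and 0 of the 358 were called in the opposite direction. The test of the difference between the diet effects at 8 and 2 weeks called 39 probe sets; by gene it called 27 with the more positive effect at 8 weeks (0.36%) and 4 with the more negative (0.0534%). With the spike-in level as a covariate limma called 0, with 819 at an unadjusted p under 0.05, and with the GAPDH ratio as a covariate it called 4.

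Of the genes called with the more positive effect at 8 weeks, 6 were among the 29 of the injury list, 2 among the 16 collagens and 4 among the 29 macrophage and myeloid genes, lists that share members. Havcr1 differed by 0.40 ± 0.33 at 2 weeks and by 2.88 ± 0.33 at 8 weeks, a change of 2.48 ± 0.47 (adjusted p = 0.0155). The change was 1.73 ± 0.32 for Lcn2, 1.25 ± 0.24 for Spp1 and 1.19 ± 0.19 for Clu, and of these 4 genes Spp1 was already called higher at 2 weeks (0.93 ± 0.17, adjusted p = 0.00097). Col1a1 went from 0.23 ± 0.20 to 1.80 ± 0.20 (adjusted p of the change 0.011) and Col3a1 from 0.01 ± 0.14 to 0.93 ± 0.14 (0.0247). The further Col1a1 probe set was not called for this change (adjusted p = 0.158). In the normal-diet animals mean Col1a1 was 147 at 2 weeks and 81.0 at 8 weeks, so the controls of the 2 times also stood at different levels.

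Of the 29 macrophage and myeloid genes 0 were called higher and 5 lower at 2 weeks, with a median of -0.15, and 10 higher and 2 lower at 8 weeks, with a median of 0.25. Cd68 went from -0.15 ± 0.14 to 0.90 ± 0.14 (adjusted p of the change 0.0155), C1qa from -0.05 ± 0.09 to 0.57 ± 0.09 (0.0165) and Gpnmb from 0.05 ± 0.17 to 1.21 ± 0.17 (0.0219). The class II gene RT1-Da was called lower at 2 weeks (-0.35 ± 0.11, adjusted p = 0.0472) and higher at 8, Bst2 went from -0.29 ± 0.14 to 0.74 ± 0.14 and Tap2 from -0.13 ± 0.14 to 0.74 ± 0.14. Cathepsin L (Ctsl) was likewise called lower at 2 weeks (-0.32 ± 0.07) and higher at 8 (0.28 ± 0.07), the latter call being lost under 3 other settings. Slc9a3 went the other way, from 0.18 ± 0.08 to -0.50 ± 0.08 (adjusted p of the change 0.00871). With the GAPDH ratio as a covariate the genes still called for this change were Clu, Ctsl, Cpe and COX1.

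Other genes were called at both times. Psca differed by 3.24 ± 0.27 at 2 weeks and 2.82 ± 0.27 at 8, a change of -0.42 ± 0.38 (adjusted p = 0.723). Akr1b1 differed by 1.86 ± 0.22 and 1.46 ± 0.22, Aqp4 by 1.97 ± 0.16 and 1.15 ± 0.16, and Aqp2 by 1.16 ± 0.14 and 0.73 ± 0.14; none of their changes passed the test. Slc4a4 was at -0.47 ± 0.07 at both times. The further probe sets of Aqp4 and Slc4a4 were called at 2 weeks but not at 8. In the proximal tubule list 26 genes were lower at 2 weeks and 21 at 8, with medians of -0.21 and -0.21. That a change missed the threshold does not show that the 2 times were alike.

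Adipocyte genes, which mark fat left on the kidney, varied between animals. Of 10 tested 2 were called higher at 8 weeks, both known from brown fat: Cidea (1.28 ± 0.24, 36.3 to 78.0 and 125.3 to 174.3) and Ucp1 (2.84-fold, adjusted p = 0.023, 13.7 to 41.4 and 36.3 to 162.2). The Ucp1 call was lost without normal-diet animal 1, without high salt and fat animal 1 or 4 and without normal-diet animals 1 and 2. All 8-week normal-diet values of Ucp1 lay below the filter level, so the size of its difference rests on the pseudocount. The list's summed signal was 654.5 to 4789.7 on the normal diet and 1096.8 to 1623.0 on high salt and fat. Fabp4 was 952.6 in normal-diet animal 1 and 1.0 to 158.2 in the other 5, and Car3 was 2089.9 there and 34.0 to 639.7 in the others. At 2 weeks 7 of the list were lower on high salt and fat. Their part in Ucp1, Cidea, Scd and Thrsp was not tested.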

How the data were processed

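Whole-kidney RNA (about 5 µg per array) from separate male SHR-SP rats was hybridised to rat arrays, with 6 arrays for each diet and time. The deposited values are intensities: MAS5 signals per probe set, per the submitters' processing notes, which the authors had scaled so that the mean without the outer 2% at each end was 150.034 to 150.042 on every array. Version and settings of that step are not given in the sources used here. Precision is limited by how many arrays each group has.

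A pseudocount of 7.21 (0.1 times the median of the array medians) was added before log2. Probe sets above the array's 40th percentile on at least 6 of 24 arrays were kept (10208 of 15923). A group-means model was fitted to all 24 arrays in limma 3.58.1 (R 4.3.3), with trended variances and Benjamini-Hochberg adjustment over all 10208; 12783 probe sets carried 1 gene symbol, 312 several and 2771 none. A gene was read from its probe set with the highest mean. Tested on simulated data for the 8-week comparison, the model recovered 67% of log2 changes of 0.5 and 96% of those of 1. It also called 8 unchanged probe sets. The simulated noise was independent between probe sets, without deviations shared across an array, so these shares may not hold for the real arrays. Single measures of the arrays used two-sided exact permutation tests.

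Genes were named if among the 15 largest increases or 10 largest decreases called, among up to 5 called members of a list of smallest p (3 against its direction), among up to 6 of largest size each way called for the difference between times, or on a list of marker genes always given; other probe sets and Fabp4, Car3 and Krt5 were added after their values were seen. The comparison and its lists were chosen with earlier results of these data known. Alternatives were other pseudocounts, normalizations, filters and variance settings, array weights, a replicate block, the 12 arrays of 8 weeks alone, arrays left out, and the spike-in level or GAPDH ratio as a covariate.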

Additional observations from a re-analysis of the deposited data

Results flagged for a closer look

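In 18 of 462 sets of 6 animals, 1 animal stood apart from the others by Dixon's gap, the distance to the nearest animal over the whole range; chance alone gives about 1 in 20. On the normal diet the highest animal stood apart for Col5a2 (0.649) and Cbs (0.672) in animal 2, for Dcn (0.640), Ppp1r1b (0.679) and the class I list (0.690) in animal 3, and for Hsp90ab1 (0.772) and COX1 (0.696) in animal 5. The lowest normal-diet animal stood apart for Aqp3 (0.670, animal 1), Slc12a3 (0.714, animal 3) and Gstp1 (0.710, animal 6). On high salt and fat, animal 2 was lowest for Psmb8 (0.870), Icam1 (0.731) and the class I list (0.849). Animal 1 was highest for Tspan1 (0.683), animal 5 lowest for Aldh1a1 (0.664) and the adrenal list (0.649), and animal 6 highest for Kdr (0.653) and lowest for the TGF-beta list (0.704).

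The diet difference was tested between 8 and 2 weeks in limma, and 23 of the named genes passed. Some genes were named because they passed this test, so their number was partly fixed by the naming. Over all genes the test called 27 (0.36%) with the more positive effect at 8 weeks and 4 (0.0534%) with the more negative. On the log2 scale, 8 weeks minus 2 weeks, the named genes that passed were Havcr1 (2.48), Lcn2 (1.73), Spp1 (1.25), Clu (1.19) and Vim (0.99) among injury genes, and Col1a1 (1.57) and Col3a1 (0.91) among collagens. Gpnmb (1.15), Cd68 (1.05), C1qa (0.62), Ctsl (0.60), Tap2 (0.87), B2m (0.42), RT1-Da (0.89) and Bst2 (1.03) were the immune and lysosomal genes. Cidea (1.62), Ucp1 (2.79), Thrsp (3.18), COX1 (1.72), Slc9a3 (-0.68), Gcnt2 (-0.59), Tmtc1 (-0.59) and Nae1 (-0.80) completed the set. Further probe sets of Col1a1 (adjusted p = 0.158), B2m (0.382) and Thrsp (0.0529 and 0.118) did not pass this limma test, while that of Ctsl did (0.017). For Thrsp at 8 weeks the group means of the signal and the log2 difference had opposite signs.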

How the results depend on the processing

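The 933 probe sets called at 8 weeks became 541 (332 higher, 209 lower) without normal-diet arrays 1 and 2 and 497 (302 higher, 195 lower) with the spike-in level as a covariate. Leaving out 1 array gave 543 to 1120 called, 359 to 655 higher and 184 to 465 lower. The 39 called for the difference between the times became 24 with a stricter filter, 80 with array weights, 4 with the GAPDH ratio and 0 with the spike-in level as a covariate (819 at an unadjusted p under 0.05), and 22 to 50 without 1 array. The 892 called at 2 weeks became 482 with the spike-in covariate and 328 with the GAPDH covariate. With the 12 arrays of 8 weeks alone 644 were called. Same-numbered animals did not deviate together (correlations -0.0318 to 0.0320, 0 of 6 pairs over 0.1), so the numbers do not pair them; with a replicate block 922 were called. Higher calls were 61.6% of all as deposited, 56.2% after quantile normalization and 57% after median centring. The difference of the gene Slc12a3 was -0.24 to 0.13 without 1 array and 0.000675 with the spike-in covariate, and that of the gene Ace was -0.00127 to 0.23. Without 1 array the GAPDH ratio differed by -0.0274 to 0.0248 and the spike-in level by 0.167 to 0.308. With a stricter filter, which tests fewer genes, the count of increases went from 11 to 6 in matrix glycoproteins, 7 to 3 in smooth muscle, 8 to 5 in class I, 5 to 3 in the collecting duct, 7 to 4 in lysosomes and 6 to 2 in antioxidant genes. Of 185 named genes, 123 kept direction and call in every setting that tested them. There were 26 such settings, and 49 genes were not tested with the stricter filter. Many of the 185 were named for large changes or small p-values in these same data. Some of the 123, such as Umod and Nphs1, were uncalled in every setting. Their number therefore does not measure how stable the calls are over all genes. Calls of Ctsd, Glb1, Ifi27 and Timp3 were lost under 2 settings and those of Cald1, Cldn4, Ctsh, Myc and Phgdh under 1, while Kl was called under 1.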
